A study of Homo sapiens with 6 samples.

Results

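The platelet-derived growth factor (PDGF) family was read in 6 libraries of SKOV3 cells, a long-established line from a human ovarian carcinoma. The members are the 7 genes that carry the family's symbols: the ligands PDGFA, PDGFB, PDGFC and PDGFD, the receptors PDGFRA and PDGFRB, and the receptor-like gene PDGFRL. They were found by symbol among the 60664 genes of the count table, and each matched exactly 1 Ensembl gene. In 3 cultures JUP, which encodes the junction protein plakoglobin, was knocked down with a short hairpin RNA (shJUP 1 to 3), and 3 cultures carried the control construct (shNC 1 to 3, genotype WT in the labels). No drug or other treatment is named for either group. The labels name neither the hairpin's sequence nor whether a line is 1 clone, and what the hairpin does besides lowering JUP cannot be told apart from lower JUP. The title of the series places PDGFB between JUP and JAK-STAT signalling, so the comparison asks how the transcripts of the family differ between the knockdown and control cultures.

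PDGF ligands are secreted as dimers. PDGF-A and PDGF-B are made as precursors that convertases such as furin cut inside the cell, whereas PDGF-C and PDGF-D leave the cell in a latent form and are activated outside it by proteases such as tissue plasminogen activator and urokinase. The dimers bind and join the receptor tyrosine kinases PDGFRA and PDGFRB, which then recruit phosphatidylinositol 3-kinase, phospholipase C gamma, Ras adaptors, SHP2 and STAT proteins. In most tissues the receptors sit on fibroblasts, pericytes and smooth muscle cells, and epithelial or carcinoma cells are known mainly as a source of the ligands. PDGFRL resembles the extracellular part of a PDGF receptor and has no kinase domain.

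Library totals ranged from 17456121 to 19279514 estimated counts. Levels are given as CPM, counts scaled to the size of each library after TMM normalisation, on which 3 counts, the limit that a count of 0 allows, correspond to 0.159 to 0.167 CPM per library. JUP itself was at 39.9, 93.6 and 24.6 CPM in knockdown libraries 1, 2 and 3, against 104, 133 and 101 CPM in controls 1, 2 and 3. The library labelled shJUP 2 therefore kept 83% of the mean control level, and over all libraries JUP had a log2 fold change of -1.10 (SE 0.44, edgeR adjusted p = 0.471, DESeq2 0.185). With the library number as a block it was -1.30 (edgeR adjusted p = 0.12, DESeq2 0.0481). On numbers 1 and 3 alone JUP was at -1.66 (edgeR adjusted p = 0.0511, DESeq2 4.48e-11). The number-2 libraries of both groups also stood apart from the others, so the fold changes of the members are given with and without them below or in the plot of fold changes by setting. SKOV3 is known for high ERBB2, which was at 2320 to 6910 CPM, and PAX8, KRT8 and KRT18 were at 191 CPM or more in every library, while EPCAM stayed at or below 4.62 CPM and MUC16 at or below 0.637 CPM. Of 12 listed identity markers 10 reached 1 CPM in some library. WT1 was at 1.55 to 3.61 CPM, MUC1 at 2.18 to 7.7 CPM, CLDN4 at 0.387 to 3.31 CPM and CLDN3 at or below 0.587 CPM.

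PDGFC was the dominant transcript of the family by a wide margin. It encodes PDGF-C, a ligand with an N-terminal CUB domain that keeps it latent, which acts mainly through PDGFRA. PDGFC (ENSG00000145431) was at 172, 168 and 152 CPM in knockdown libraries 1, 2 and 3, against 199, 163 and 212 CPM in controls 1, 2 and 3. Controls 1 and 3 lay above all knockdown libraries, but shNC 2 lay between shJUP 3 and shJUP 2, so the groups overlapped. The mean was 164 ± 10.3 against 191 ± 25.6 CPM (SD, n = 3 each), a log2 fold change (shJUP over shNC) of -0.22 with a standard error (SE) of 0.13. The 95% interval ran from -0.52 to 0.08, which holds 0 (edgeR's quasi-likelihood test, adjusted p = 0.596). With both number-2 libraries left out, it was -0.33 (edgeR adjusted p = 0.221), on 2 libraries per group.

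To compare genes with each other, CPM were divided by the length of the longest annotated transcript. On this scale of CPM per kilobase PDGFC was at 45.9 ± 6.14 in the controls, above 92.1% of the tested genes. PDGFA followed at 3.98 ± 0.461, PDGFRL at 1.80 ± 2.05, PDGFB at 0.741 ± 0.256, PDGFD at 0.672 ± 0.231, PDGFRA at 0.259 ± 0.203 and PDGFRB at 0.0378 ± 0.0156 CPM per kilobase (SD, n = 3). PDGFC and PDGFA were each separated from the next member by more than their spread, except that PDGFRL in shNC 2, at 4.16 CPM per kilobase, reached the level of PDGFA. PDGFB and PDGFD did not differ beyond their spread in the controls, and PDGFRA lay below both in the mean with 1 library inside their range.

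In the knockdown libraries the order was the same apart from this pair. PDGFC stood at 39.4 ± 2.46, PDGFA at 3.85 ± 0.831, PDGFRL at 1.02 ± 0.386, PDGFD at 0.921 ± 0.560, PDGFB at 0.241 ± 0.177, PDGFRA at 0.207 ± 0.0948 and PDGFRB at 0.0160 ± 0.0115 CPM per kilobase (SD, n = 3). PDGFB was below PDGFD in all 3 knockdown libraries, and above it in controls 2 and 3 but not in control 1. PDGFB and PDGFRA did not differ beyond their spread there.

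**Figure D1:**
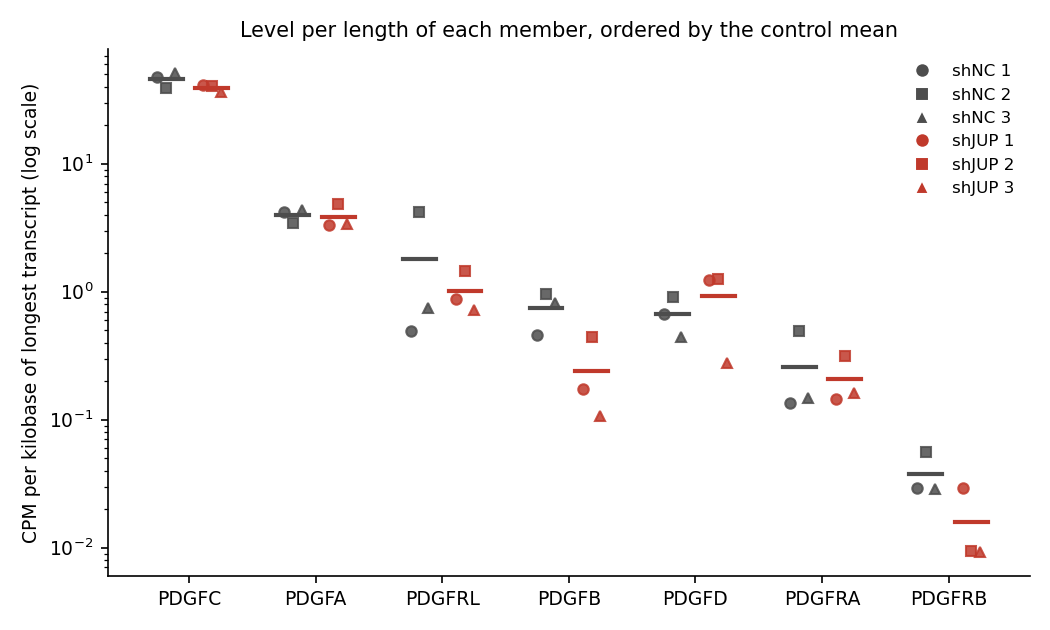
Level per length of the 7 members, as CPM per kilobase of the longest transcript on a log axis, ordered by the control mean. Each point is 1 library (circle, square and triangle for numbers 1, 2 and 3), and horizontal bars are group means: PDGFC sits at 36.6 to 51.0 in every library, PDGFB between 0.106 and 0.957, and PDGFRB at 0.0558 or below.

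Seen as a pool, the ligand transcripts were nearly all PDGFC. Per length PDGFC made up 86.1% to 90.6% of the summed ligand level in the knockdown libraries and 88.0% to 90.1% in the controls, and PDGFA another 7.27% to 10.3%. PDGFB made up 0.263% to 0.945% of the pool in shJUP and 0.865% to 2.16% in shNC. The ratio of PDGFC to PDGFB per length was 235, 91.1 and 344 in shJUP 1, 2 and 3 and 104, 40.8 and 63.0 in shNC 1, 2 and 3. The ligands together exceeded the summed level of the receptors PDGFRA and PDGFRB between 80.9-fold, in shNC 2, and 324-fold, in shNC 1. These are shares of transcript and say nothing of protein, and in bulk RNA a smaller share of cells that express a gene cannot be told apart from less RNA per cell.

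PDGFB, which encodes the ligand that binds both receptors, was lower in each knockdown library than in each control, at a depth of 7 to 63 counts. PDGFB (ENSG00000100311) had 11, 29 and 7 counts in shJUP 1, 2 and 3 and 29, 63 and 52 counts in shNC 1, 2 and 3, or 0.614, 1.55 and 0.372 against 1.6, 3.35 and 2.83 CPM. The gap between the groups is thin: shJUP 2 and shNC 1 both held 29 counts, and they are apart only because shNC 1 is the smaller library. Their 95% counting intervals, 1.04 to 2.22 and 1.07 to 2.30 CPM, overlap almost wholly. The groups did not overlap for 1 of the 6 tested members, PDGFB, where 17% of all tested genes showed no overlap and 8.65% showed none with shJUP lower.

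The fitted log2 fold change of PDGFB was -1.61 (SE 0.55), that is 0.327 of the control level with a 95% interval of 0.133 to 0.804. Over all genes edgeR gave it an unadjusted p of 0.0214 and an adjusted p of 0.44, above the threshold of 0.05, and an exact two-sided permutation test of the CPM gave p = 0.1, the smallest that 3 against 3 libraries allow. An unadjusted p under 0.05 was held by 10% of the tested genes in that fit, 4.87% with shJUP lower, and a log2 fold change of -1 or lower by 1.65%. DESeq2 gave an adjusted p of 0.209 and edgeR with the library number as a block gave 0.139 at a log2 fold change of -1.71. On numbers 1 and 3 alone it was -2.15 (edgeR adjusted p = 0.121).

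Compared within a library number, PDGFB was below its control in all 3 numbers. The lack of overlap between the groups already fixes this direction, so only the sizes of the ratios add to it. Number 1 gave a ratio of knockdown to control of 0.383, with a 95% counting interval of 0.173 to 0.790. In number 2 the ratio was 0.462 (0.287 to 0.728), and number 3 had the lowest, 0.131 (0.0503 to 0.290). PDGFB was the only member on one side of 1 in every number, a pattern that 43.8% of the tested genes showed in either direction and 22.5% showed as lower. The ratios had the same order as those of JUP, which were 0.384, 0.705 and 0.243 for numbers 1, 2 and 3. Ordered from low to high, the libraries ran shJUP 3, shJUP 1, shJUP 2, shNC 3, shNC 1, shNC 2 for JUP, and PDGFB gave that order with shNC 1 and shNC 3 exchanged. Of the 15866 other tested genes, 494 (3.11%) had the order of JUP or that order with 1 pair of neighbours exchanged. The allowance of 1 exchanged pair was not planned and is the smallest that admits PDGFB, so the share is no test. It is a description of 6 libraries in 2 groups.

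**Figure D2:**
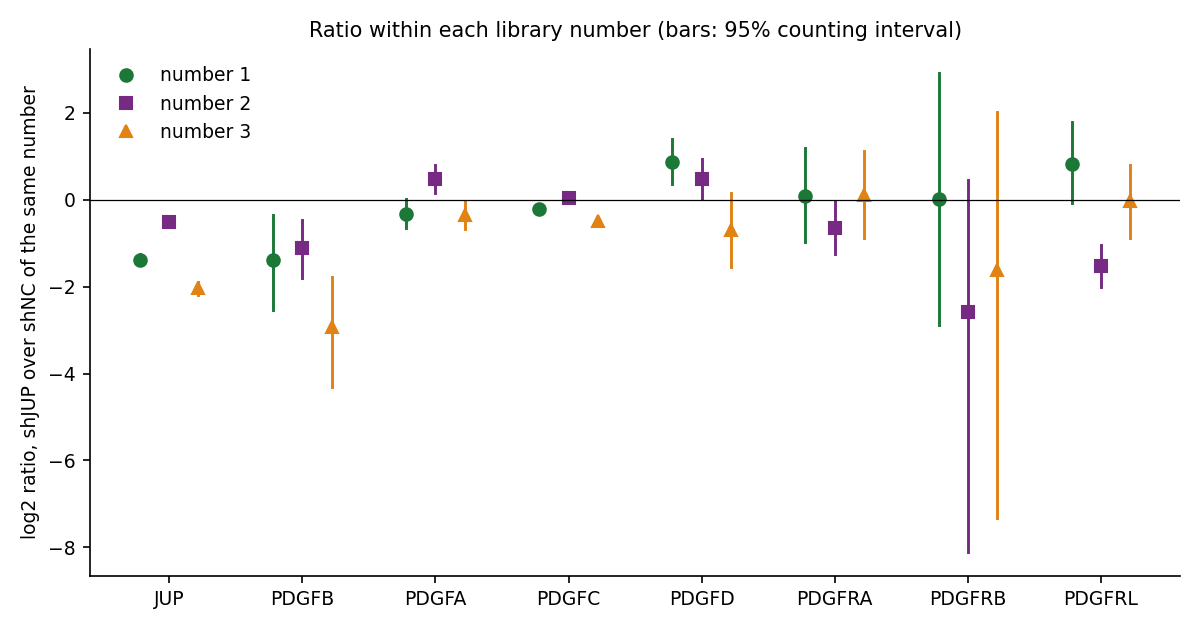
Ratio of shJUP to the shNC library of the same number for JUP and the 7 members, on a log2 axis, with bars for the 95% counting interval. JUP and PDGFB lie below 0 in all 3 numbers, whereas PDGFA, PDGFC, PDGFD, PDGFRA and PDGFRL have points on both sides of 0 and the intervals of PDGFRB span 0 in each number.

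PDGFA, the ligand that binds PDGFRA only, showed the smallest difference of the tested members. PDGFA (ENSG00000197461) was at 7.70, 11.1 and 7.86 CPM in knockdown libraries 1, 2 and 3, against 9.62, 7.97 and 9.96 CPM in controls 1, 2 and 3. The number-2 libraries were on opposite ends here, shJUP 2 being the highest of all libraries and shNC 2 the lowest control. The log2 fold change was -0.05 (SE 0.21, 95% interval -0.54 to 0.45, edgeR adjusted p = 0.952), and -0.32 on numbers 1 and 3 alone (edgeR adjusted p = 0.368). The interval leaves room for a change down to 0.688 or up to 1.36 of the control level.

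PDGFA is a textbook case of a growth factor gene with GC boxes, the sites of SP1, overlapping sites of the early growth response factor EGR1 just before a start site. The stretch is shown because the genes of both factors were measured here. It comes from the RefSeq promoter table (GRCh38.p14), which holds 4 starts for PDGFA, and covers the 100 bases before 1 of them, at chr7:519847-519946 on the minus strand. In GENCODE 29 it lies in the first intron of transcripts that start further upstream and in no exon. Capitals mark 3 copies of GGGCGG, from position -71, which overlap 2 copies of GCGGGGGCG.
PDGFA: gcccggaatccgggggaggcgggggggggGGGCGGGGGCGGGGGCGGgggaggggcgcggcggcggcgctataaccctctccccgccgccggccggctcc
The window is 87% G or C. Of the 35116 promoter windows of this length in the table, 31.3% held GGGCGG on either strand and 3.19% held GCGGGGGCG or GCGTGGGCG, the other form searched. A match of letters is a description and not a site in use.

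Of 16 tested transcription factors known to act at PDGF promoters, 9 lay above 0 and 7 below, with a median log2 fold change of 0.05 against -0.009 over all tested genes. None passed the edgeR test. SP1 was at 170, 166 and 169 CPM in knockdown libraries 1, 2 and 3, against 223, 214 and 204 CPM in controls 1, 2 and 3, with no overlap between the groups (log2 -0.35, SE 0.09, edgeR adjusted p = 0.399). A lack of overlap with shJUP lower was seen for 8.65% of all tested genes. DESeq2 gave SP1 an adjusted p of 0.107, and 0.0448 with the block, a fit that called 5.25% of all genes. KLF5, a Krüppel-like factor, was at 208 ± 14.7 against 254 ± 36.5 CPM (SD, n = 3 each; edgeR adjusted p = 0.521). EGR1, named here after its values were seen, followed the library number: it was at 490 and 798 CPM in shJUP 2 and shNC 2 and at 96.9 to 272 CPM in the other libraries.

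PDGFD encodes a second latent ligand, which acts mainly through PDGFRB. PDGFD (ENSG00000170962) was at 4.97, 5.12 and 1.12 CPM in knockdown libraries 1, 2 and 3, against 2.71, 3.67 and 1.80 CPM in controls 1, 2 and 3. Knockdown libraries 1 and 2 lay above all controls, while shJUP 3 was the lowest of all libraries. The log2 fold change was 0.45 (SE 0.56, 95% interval -0.86 to 1.77, edgeR adjusted p = 0.806). By number, knockdown over control came to 1.83 (1.28 to 2.65), 1.4 (1.01 to 1.93) and 0.621 (0.341 to 1.11), so number 3 went the other way. Without shJUP 3 the log2 fold change was 0.89 (edgeR adjusted p = 0.890). PDGFD was the 1 tested member with a fold change above 0.

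The ligands thus differed in how much they varied between libraries of the same kind. The biological coefficient of variation fitted by edgeR was 14.1% for PDGFC and 21.7% for PDGFA, against medians of 14% and 22.8% over genes of like mean level. It was 45.6% for PDGFB and 48.9% for PDGFD, where genes of like level had medians of 33.1% and 29.8%. The spread of PDGFC and PDGFA was therefore that of genes of their abundance, while PDGFB and PDGFD exceeded 80.5% and 88.6% of theirs.

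**Figure D3:**
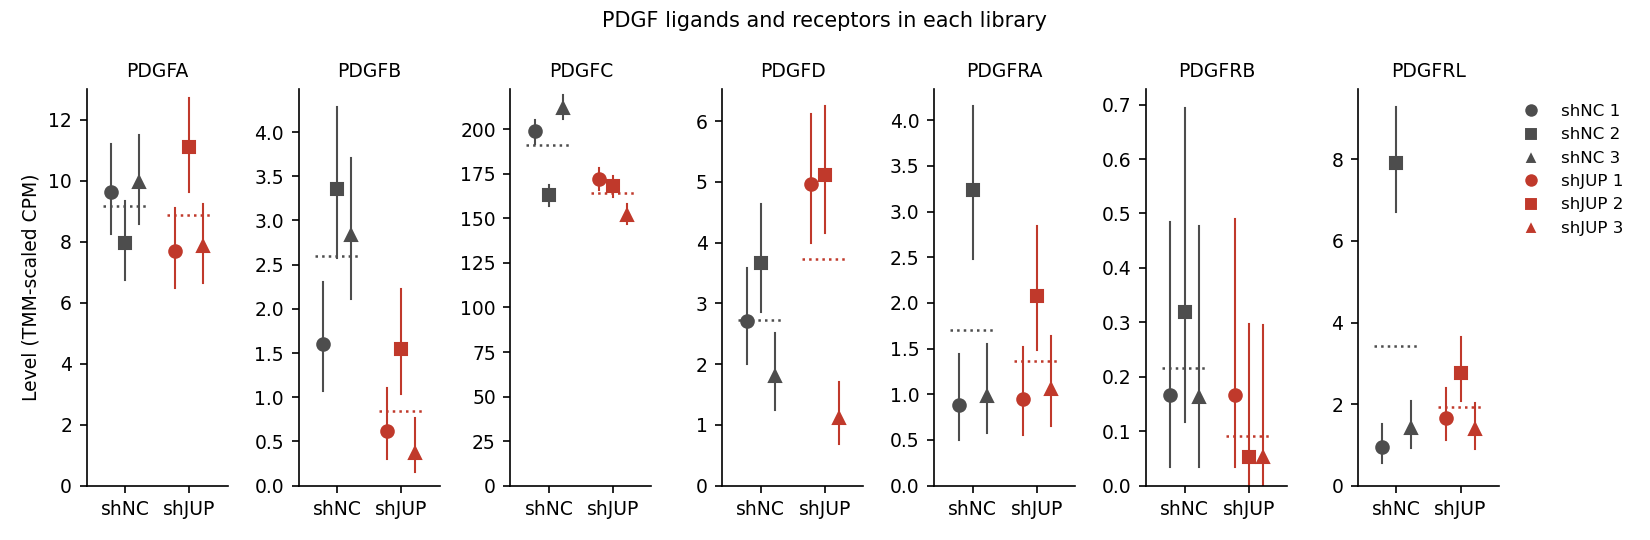
TMM-scaled CPM of each member in the 6 libraries, each panel with its own linear axis from 0, bars for the 95% counting interval and dotted lines for group means. PDGFB is the one panel with all 3 shJUP points below all shNC points, and PDGFRA and PDGFRL have their highest points in the number-2 libraries (squares).

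Receptor transcripts were scarce. PDGFRB, the main receptor for PDGF-BB, had 3, 1 and 1 counts in shJUP 1, 2 and 3 and 3, 6 and 3 counts in shNC 1, 2 and 3, so that 1 library (shNC 2, 0.319 CPM) exceeded the limit of 3 counts. It did not reach the filter for testing, and no fold change is given. At this depth a difference in PDGFRB between the groups was not detectable.

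PDGFRA, which binds every ligand dimer but PDGF-DD, separated by library number and not by group. PDGFRA (ENSG00000134853) was at 0.948, 2.08 and 1.06 CPM in knockdown libraries 1, 2 and 3, against 0.884, 3.24 and 0.979 CPM in controls 1, 2 and 3. The number-2 libraries were the highest in both groups, and the other 4 libraries lay within 0.884 to 1.06 CPM, at 16 to 20 counts. The log2 fold change was -0.32 (SE 0.59, 95% interval -1.71 to 1.07, edgeR adjusted p = 0.879) and turned to 0.12 on numbers 1 and 3 alone (edgeR adjusted p = 0.904). Exons of PDGFRA overlap on the same strand those of a read-through gene, ENSG00000282278. That gene was assigned 0.531 CPM (10 counts) in shJUP 3, 0.212 CPM in shNC 2 and 0 CPM elsewhere. Reads of the shared exons could belong to either gene, so the counts of PDGFRA are uncertain by an amount that was not measured.

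PDGFRL (ENSG00000104213) had the same shape with a larger swing. It was at 1.67, 2.77 and 1.38 CPM in knockdown libraries 1, 2 and 3, against 0.940, 7.92 and 1.41 CPM in controls 1, 2 and 3. The library shNC 2 was 6.72 times the mean of the other controls, and shJUP 2 was 1.82 times the mean of the other knockdown libraries. The log2 fold change of -0.82 (SE 0.78, edgeR adjusted p = 0.738) rested on shNC 2, without which it was 0.72 (edgeR adjusted p = 0.595). On numbers 1 and 3 alone it was 0.38 (edgeR adjusted p = 0.645). PDGFRL overlaps exons of MTUS1 on the opposite strand. Whether counting used strand is not stated by the submitters, and MTUS1 was also highest in shNC 2, at 15.4 CPM against 3.92 to 11.9 CPM elsewhere. Among the knockdown libraries MTUS1 was highest in shJUP 1 (11.9 CPM), with shJUP 2 at 9.76 CPM, unlike PDGFRL. The part of MTUS1 reads in the counts of PDGFRL was not tested.

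Across the family, number 2 was the highest library of its group in both groups for 4 of the 6 tested members, PDGFB, PDGFD, PDGFRA and PDGFRL, against 25.8% of all tested genes. For PDGFRA and PDGFRL both number-2 libraries exceeded all 4 others, as for 18.5% of all tested genes. PDGFRA is a fibroblast marker as well, so the other fibroblast markers were read beside it. All 10 listed fibroblast markers had counts and 8 reached 1 CPM in some library. The summed level of the 9 other than PDGFRA was 27.1 to 291 CPM in shJUP and 60.7 to 562 CPM in shNC. It was highest in shNC 2 (562 CPM), whereas shJUP 2 (68.3 CPM) was not the highest of its group. The highest sum in each group was mostly COL1A1, a collagen gene, at 253, 32.3 and 8.76 CPM in knockdown libraries 1, 2 and 3, against 38.3, 401 and 49.3 CPM in controls 1, 2 and 3. COL1A2 and COL3A1 were likewise highest in shNC 2 among the controls and in shJUP 1, not shJUP 2, among the knockdown libraries. DCN, a proteoglycan, LUM and POSTN were highest in number 2 of each group. In shJUP 2 and shNC 2 they were at 5.87 and 7.54 CPM (DCN), 6.67 and 15.5 CPM (LUM) and 0.48 and 44.2 CPM (POSTN). THY1 and FAP were also highest in number 2 of each group, but stayed at or below 0.584 CPM everywhere. PDPN lay at 15.9 to 22.4 CPM and was highest in shJUP 1 and shNC 2. These genes were named after their values were seen. The part of these markers in the receptor levels was not tested.

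Markers of other cells that carry or release PDGF were mostly low, but not all were near 0. Of 10 pericyte and smooth muscle markers 4 reached 1 CPM, and the 9 other than PDGFRB summed to 20.0 to 33.9 CPM in shJUP and 17.4 to 21.5 CPM in shNC. Most of this was ABCC9 at 8.59 to 13.4 CPM, RGS5 at 4.3 to 8.48 CPM and MCAM at 0.762 to 10.4 CPM. Each of them lay above PDGFRB. Of 6 platelet markers 2 reached 1 CPM, with sums of 1.86 to 2.19 and 2.72 to 3.26 CPM. PF4 and PPBP, which are abundant in platelets, had at most 0.0533 CPM and GP9 none. Of 10 endothelial markers 6 reached 1 CPM (sums of 11.9 to 16.0 and 7.89 to 17.1 CPM), with EMCN at 0. KDR was at 5.06 to 10.8 CPM, and ERG reached 5.1 CPM in shNC 2. Of 10 leukocyte markers CD68 alone did, and the list summed to 22.7 to 36.8 and 19.9 to 32.6 CPM, with CD3E and MS4A1 at 0. The list for neural or embryonic kidney cell lines had 2 of 8 at that level (sums of 43.7 to 57.2 and 32.0 to 42.8 CPM), TUBB3 holding most, with NEFM, PAX2 and ELAVL4 at 0.

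Across the members, 0 of the 6 that could be tested passed edgeR's quasi-likelihood test, in which 0.0% of the 15867 tested genes passed. At an unadjusted p under 0.05 there was 1, PDGFB, among the 1594 genes at that level. DESeq2 gave all 6 tested members an adjusted p and called none, while it called 179 genes (1.19%). No member was called in any of the 20 settings run. Among these, edgeR called 0.0063% of genes with the block, 0.308% on numbers 1 and 3 alone and 0.0158% without the filter. DESeq2 with the block called 696 genes (5.25%) and gave no adjusted p to PDGFB, PDGFRA or PDGFRB. On numbers 1 and 3 alone DESeq2 called 651 genes (4.97%) and gave none to PDGFB (unadjusted p = 0.00539), PDGFRA, PDGFRB or PDGFRL, so these could not be called in those fits. The 6 tested members had a median log2 fold change of -0.27, with 5 below 0, where 51.4% of all tested genes lay below 0.

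**Figure D4:**
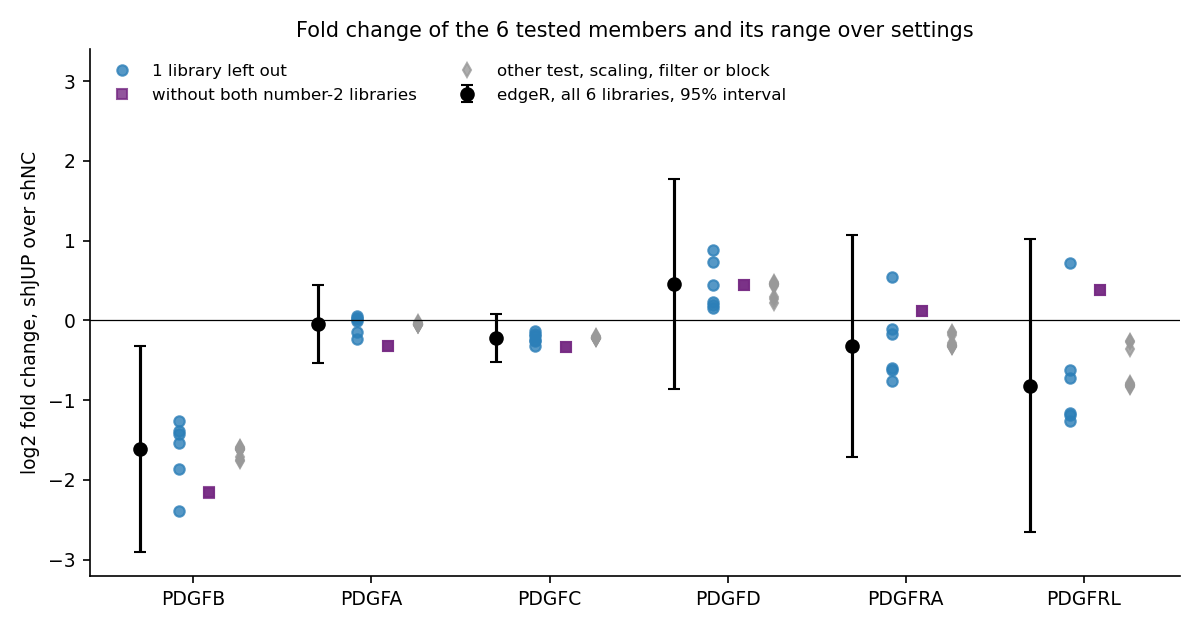
Log2 fold change (shJUP over shNC) of the 6 tested members, with the edgeR estimate and its 95% interval in black and the estimates of the other settings as coloured points. PDGFB stays between -2.38 and -1.26 with 1 library left out, whereas PDGFA, PDGFRA and PDGFRL have points on both sides of 0.

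The proteins that process or bind PDGF were mostly well expressed. Of 16 listed genes 14 were tested, 10 lay below 0 and 4 above, none passed the edgeR test, and the median log2 fold change was -0.14. FURIN, a convertase of the PDGF-A and PDGF-B precursors, was at 81.6, 104 and 71.0 CPM in knockdown libraries 1, 2 and 3, against 137, 104 and 130 CPM in controls 1, 2 and 3. The groups did not overlap, as for 8.65% of all tested genes with shJUP lower, though shJUP 2 and shNC 2 are equal to the digits given (log2 -0.53, SE 0.17, edgeR adjusted p = 0.43). On numbers 1 and 3 alone FURIN was at -0.80, with an adjusted p of 0.0628 in edgeR and of 1.11e-05 in DESeq2, which called 4.97% of all genes there. PCSK6, a related convertase, was at 1.66 ± 0.657 against 3.71 ± 0.289 CPM (SD, n = 3 each; log2 -1.15, SE 0.35, edgeR adjusted p = 0.409). Of the outside activators, PLAT, which cuts PDGF-C, was at 13.1 to 38.8 CPM in shJUP and 21.8 to 37.2 CPM in shNC, and PLAU, which cuts PDGF-D, at 277 to 408 and 242 to 312 CPM. These 2 were named after the values were seen.

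Of the signalling proteins that sit on activated PDGF receptors, all 20 listed were tested. Of these 9 lay above and 11 below 0, the median log2 fold change was -0.02 and the extremes were -0.39 and 0.25. None passed the edgeR test or DESeq2. PIK3CA, the catalytic subunit of phosphatidylinositol 3-kinase, was at 50.4 ± 5.82 against 61.8 ± 6.17 CPM (edgeR adjusted p = 0.508) and PTPN11, the gene of SHP2, at 403 ± 40.7 against 339 ± 27.5 CPM (SD, n = 3 each; edgeR adjusted p = 0.539).

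Among the 20 genes of the kinase cascades and JAK-STAT proteins downstream, 12 lay above and 8 below 0, with a median of 0.05. None passed the edgeR test. STAT5B was at 111, 106 and 91.2 CPM in knockdown libraries 1, 2 and 3, against 127, 154 and 125 CPM in controls 1, 2 and 3, without overlap (log2 -0.40, SE 0.13, edgeR adjusted p = 0.431). Among all tested genes 17% had no overlap in either direction, and 8.65% with shJUP lower. AKT1 was at 175, 185 and 179 CPM in the knockdown libraries against 122, 160 and 136 CPM, without overlap in the other direction (log2 0.37, SE 0.12, edgeR adjusted p = 0.434). DESeq2 gave AKT1 an adjusted p of 0.267, and of 0.0414 once the block was included, where 5.25% of all genes were called.

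Of 16 tested negative regulators of the receptors, 6 lay above and 10 below 0, with a median of -0.10. None passed the edgeR test, and DESeq2 called 1, where it called 1.19% of all genes. CBLB, a ubiquitin ligase that marks active receptors for degradation, was at 19.1, 26.8 and 20.3 CPM in knockdown libraries 1, 2 and 3, against 40.8, 46.3 and 30.3 CPM in controls 1, 2 and 3. The groups did not overlap (log2 -0.83, SE 0.20, edgeR adjusted p = 0.388, DESeq2 adjusted p = 0.0343, and 0.000645 with the block). Of all tested genes 8.65% showed no overlap with shJUP lower, and DESeq2 with the block called 5.25% of all genes. PTPRK, a receptor phosphatase, was at 141 ± 24.6 against 175 ± 14.9 CPM (SD, n = 3 each; edgeR adjusted p = 0.538).

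Of 18 early genes that growth factors induce, 16 were tested, and they did not share a direction: 9 lay above and 7 below 0, with a median of 0.09 and extremes of -0.95 and 1.34. None passed the edgeR test. HBEGF, a ligand of the EGF receptor, was at 26.2, 16.3 and 26.9 CPM in knockdown libraries 1, 2 and 3, against 8.95, 8.29 and 10.1 CPM in controls 1, 2 and 3 (log2 1.34, SE 0.22, edgeR adjusted p = 0.331, DESeq2 adjusted p = 6.37e-05). KLF6, a zinc finger factor, was at 466 ± 70.1 against 240 ± 78.1 CPM (SD, n = 3 each, edgeR adjusted p = 0.391, DESeq2 adjusted p = 0.0157). That DESeq2 fit called 1.19% of all genes. With the block DESeq2 also called FOSL1 higher and JUNB lower (adjusted p = 1.12e-07 and 1.31e-08), in a fit that called 5.25% of all genes. FOSL1 and JUNB were named after their values were seen. These early genes answer to many signals besides PDGF.

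The genes whose levels followed the members most closely over the 6 libraries were looked up among 11370 tested genes with a mean of at least 5 CPM, by Pearson's r of log2(CPM + 1). Nearest to PDGFB were PHF3 (r = 0.996), FITM2 (r = 0.996) and ZBTB22 (r = 0.993), and 329 genes had an r over 0.9. PHF3 was at 162, 179 and 151 CPM in knockdown libraries 1, 2 and 3, against 178, 206 and 197 CPM in controls 1, 2 and 3, a far smaller swing than that of PDGFB. Nearest to PDGFA was EXTL2 (r = 0.991), to PDGFC TBC1D25 (r = 0.986) and to PDGFD POU5F1 (r = 0.992), a gene with near-identical copies and therefore uncertain. CADM1 was nearest to PDGFRA (r = 0.997), at 26.8 and 53.7 CPM in shJUP 2 and shNC 2 and 7.35 to 8.87 CPM elsewhere, and PDLIM5 to PDGFRL (r = 0.998). PDGFRA had 562 and PDGFRL 397 genes with an r over 0.9. These points share library, depth and group, and are a description.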

How the data were processed

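RNA of 3 shJUP and 3 shNC cultures was enriched for messenger RNA and sequenced on a DNBSEQ instrument, and the labels call the replicates independent biological ones. The authors deposited 1 table of estimated counts per Ensembl gene, made from the reads by steps the labels do not record. The labels' protocols describe FPKM from Cuffdiff, which is not what the table holds: most of its values above 0 are whole and library totals differ, and they were taken here to be RSEM expected counts, which is an assumption. The tools listed in the submitters' processing notes, without their roles, are STAR 2.7.9a, RSEM 1.3.3, edgeR 3.32.1 and DESeq2 1.26.0. For build, annotation and strand setting, the entry is: not given in the sources used here. Of 60695 rows, 31 without a gene ID were left out, and 60463 of 60664 genes matched a symbol.

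Counts (33.9% to 36.3% of those above 0 not whole) were rounded. In R 4.3.3, edgeR 4.0.16 was run with filterByExpr (15867 genes), TMM factors of 0.978 to 1.028, and the two-sided quasi-likelihood test with Benjamini-Hochberg adjustment over all tested genes and a threshold of 0.05. Each SE was derived by dividing the size of the fold change (log2) by the root of the F statistic. DESeq2 1.42.0 was run on all genes with a count, with its own filter, and limma 3.58.1 (voom) as a further test. Other settings were other scalings and filters, unrounded counts, the likelihood-ratio test, the library number as a block, each library left out, and both number-2 libraries left out. Deviations from group means correlated at 0.138, 0.512 and 0.205 between same-numbered libraries, above the limit of 0.1 for treating numbers as pairs. However, shJUP 3 correlated more with shNC 1 (0.393), and shJUP 1 more with shNC 3 (0.149), than with their own numbers. The main fit used the group only, and the pairs entered as the block setting. What the library number marks is not in the labels.

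Lengths come from GENCODE 29, which held 98.7% of tested genes, and RSEM's own effective lengths were not used. Counting intervals (exact Poisson, or exact binomial for ratios) cover counting error only. The steps were tested on simulated counts. Genes of like level are those within 1.25-fold in mean CPM. Named genes are all members, JUP, the 2 genes with the smallest p in each of 7 pathway lists, and the nearest genes by pattern. The pick by p favours genes without overlap, so a lack of overlap among them is no further support. Genes with overlapping exons are named for that reason, and cell type markers were named from their lists without such a rule. Others are said in the text to have been named after their values were seen. Members and lists were chosen with earlier results of these data known.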

Additional observations from a re-analysis of the deposited data

How the results depend on the processing

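Limits come first from depth and number: PDGFB rests on 7 to 63 counts a library, PDGFRB on 1 to 6, and each group on 3 libraries. No PDGF member was called in any setting that gave it an adjusted p, and the replicate block changed no call of a member (PDGFB was at -1.71 under it). PDGFB stayed lower throughout, which the lack of overlap between its groups already fixes when 1 library is dropped. Its log2 fold change ran from -2.38 (shJUP 2 left out) to -1.26 (shJUP 3 left out). The adjusted p of PDGFB ran from 0.121 to 0.891 over the 17 alternatives that gave one.

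Over all genes edgeR called 0, and also 0 whichever single library was dropped. Omitting the filter gave 5 calls, blocking on replicate 1, dropping both libraries numbered 2 gave 49, and the likelihood-ratio test 127. For DESeq2 the counts were 179 (1.19%) as run on all libraries, 696 (5.25%) when blocked on replicate, and 651 (4.97%) when the libraries numbered 2 were dropped.

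Reversals touched PDGFA, PDGFRA and PDGFRL. PDGFA ranged from -0.239 to 0.0495 under leave-one-out (0.0495 lacking shJUP 1, 0.0336 lacking shJUP 3, 0.0178 lacking shNC 3). PDGFRA ranged from -0.757 to 0.547, the upper end lacking shNC 2, and stood at 0.118 in edgeR and 0.116 in DESeq2 on numbers 1 and 3 alone. PDGFRL ranged from -1.26 to 0.719, again lacking shNC 2 at the upper end, and stood at 0.380 and 0.379 on numbers 1 and 3. The cause was not tested.

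The lists held 14 tested processing genes, 20 receptor-proximal genes, 20 cascade genes and 16 negative regulators. They also held 16 early genes, 16 promoter factors and 9 VEGF or class III genes, the last including ligands of class III receptors such as KITLG. On all libraries edgeR called none of them. DESeq2 called 1 negative regulator and 2 early genes, where it called 1.19% of all genes. Blocked on replicate, it called 1 cascade gene, 1 negative regulator, 4 early genes, 1 promoter factor and 1 gene of the VEGF or class III list, KITLG. That fit called 5.25% of all genes. On numbers 1 and 3 alone, DESeq2 called 3 processing genes, 1 cascade gene, 1 negative regulator, 5 early genes and 1 VEGF or class III gene, and edgeR 1 early gene. There DESeq2 called 4.97% of all genes and edgeR 0.308%. The likelihood-ratio test called 2 early genes, among 127 genes called in all. Measured over the union of exons, PDGFC made up 90.5% of the ligand level in the controls, against 89.4% over the longest transcript.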

Other observations

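The VEGF family and the class III receptor tyrosine kinases are the nearest relatives of the PDGF ligands and receptors. The list also held KITLG, CSF1 and FLT3LG, which are ligands of class III receptors. Of 14 listed genes 9 were tested, 4 lay above and 5 below 0, with a median log2 fold change of -0.22, and none passed the edgeR test. KITLG, the ligand of KIT, was at 46.3, 62.4 and 60.6 CPM in knockdown libraries 1, 2 and 3, against 71.2, 98.4 and 78.8 CPM in controls 1, 2 and 3, without overlap (log2 -0.55, SE 0.17, edgeR adjusted p = 0.413). DESeq2 gave KITLG an adjusted p of 0.185, and of 0.00394 once the block was included, where 5.25% of all genes were called. KDR, a VEGF receptor, was at 8.59, 8.96 and 10.8 CPM in shJUP against 5.53, 7.70 and 5.06 CPM in shNC, also without overlap (log2 0.63, SE 0.22, edgeR adjusted p = 0.449). A lack of overlap in either direction was seen for 17% of all tested genes, and with shJUP lower for 8.65%.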
